A study of Bos taurus with 12 samples.

Results

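The growth hormone receptor, the insulin-like growth factors and their binding proteins were followed in mammary gland (MG) biopsies of 12 early lactating cows, 6 control (CONT) and 6 restricted (REST), with 1 one-color Agilent bovine array per cow. The 10 genes are GHR, IGF1, IGF2, IGF1R and IGFBP1 to IGFBP6, and they were chosen as a pathway by a rule that uses no measured value, although earlier results of these data were known when this pathway and the gene lists below were chosen. All 10 were found among the 12639 genes that could be named on the array, by matching the RefSeq accession of each probe to the RefSeq table of bovine genes, and they are read by 31 of the 43653 probes. All cows were multiparous Holstein cows (written "Holstain" in the labels) at 24 ± 3 days in milk. CONT cows stayed on the lactation diet with free intake, while the ration of REST cows was diluted with barley straw to 48% of dry matter for 4 days. Every cow of both groups received 50 µg of lipopolysaccharide (LPS), a bacterial wall component that triggers inflammation, in a healthy rear gland of the udder on day 3, and biopsies followed 24 h later. Thus, the comparison is of diets within challenged glands, and no array of an unchallenged gland was analysed here. Only cows with RNA of uniform quality were kept by the study for the arrays.

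Growth hormone acts through its receptor, GHR, which raises IGF1 output, above all in liver, and milk yield rises with it in dairy cows. IGF1 and IGF2 signal through the IGF1 receptor, which promotes growth and survival of mammary epithelial cells. IGFBP1 to IGFBP6 are secreted proteins that bind the IGFs, lengthen their stay in blood and tissue, and limit or release their access to the receptor. In rodent and ruminant MG, IGFBP5 is best known as the binding protein that rises when milking stops and the gland involutes. When cows are underfed, the liver becomes less responsive to growth hormone and circulating IGF1 falls, and the mammary transcripts of the same axis were what these arrays measured.

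A level is given here as the log2 signal, which is log2 of the deposited intensity minus log2 of the 75th percentile of intensities on the same array, so that 0 is that percentile. A difference is the log2 fold change (log2 FC), the mean of REST minus the mean of CONT, tested with limma. Levels of different probes are not set against each other, because probes differ in brightness. Where a gene had several probes, the probe with the highest mean signal (probe 1) stands for the gene, and the others are given beside it.

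The 75th percentile of intensity was 577.1 to 1184 (median 837.4) on CONT arrays and 386.9 to 1082 (median 652.6) on REST arrays. Between 57.6% and 78.1% of probes were well above background by the call of the scanner software. The arrays lay on 3 slides of 4, with 3, 1 and 2 CONT arrays on slides 1, 2 and 3, and negative control spots were brighter on slide 1 (37.7 to 58.2) than on slides 2 and 3 (17.4 to 19.96). Markers of milk-producing epithelium were bright on all arrays, and 8 of 8 matched genes of that list, among them CSN1S1, CSN3 and LALBA, were well above background on every array. Over all 43653 probes, no probe passed the Westfall-Young threshold of 0.05 in limma (0%, lowest adjusted p = 0.30), nor the Benjamini-Hochberg threshold (lowest adjusted p = 0.777), while 1143 probes (2.62%) had an unadjusted p under 0.05 (761 with the higher mean in REST, and 857 of 1518 after quantile normalization).

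IGFBP5 was the member that differed most between diets, with a signal 2.09-fold lower in REST, while the largest difference among the other measured members was the -0.46 log2 FC of IGFBP4. Of the 9 members that could be measured in both groups, 4 had a higher mean in REST (GHR, IGF1, IGF2 and IGF1R, at 0.010 to 0.15 log2 FC) and 5 a lower mean (IGFBP2 to IGFBP6, at -1.06 to -0.0056). IGFBP5 was the 1 member of 9 under an unadjusted limma p of 0.05, against 2.62% of all probes, and 0.875% of all probes were under it with the lower value in REST. No member passed the Westfall-Young threshold, as for 0% of all probes. No member probe had groups that did not overlap, against 0.128% of all probes. The median log2 FC was -0.0056 over the 9 members and -0.023 over all probes.

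**Figure D1:**
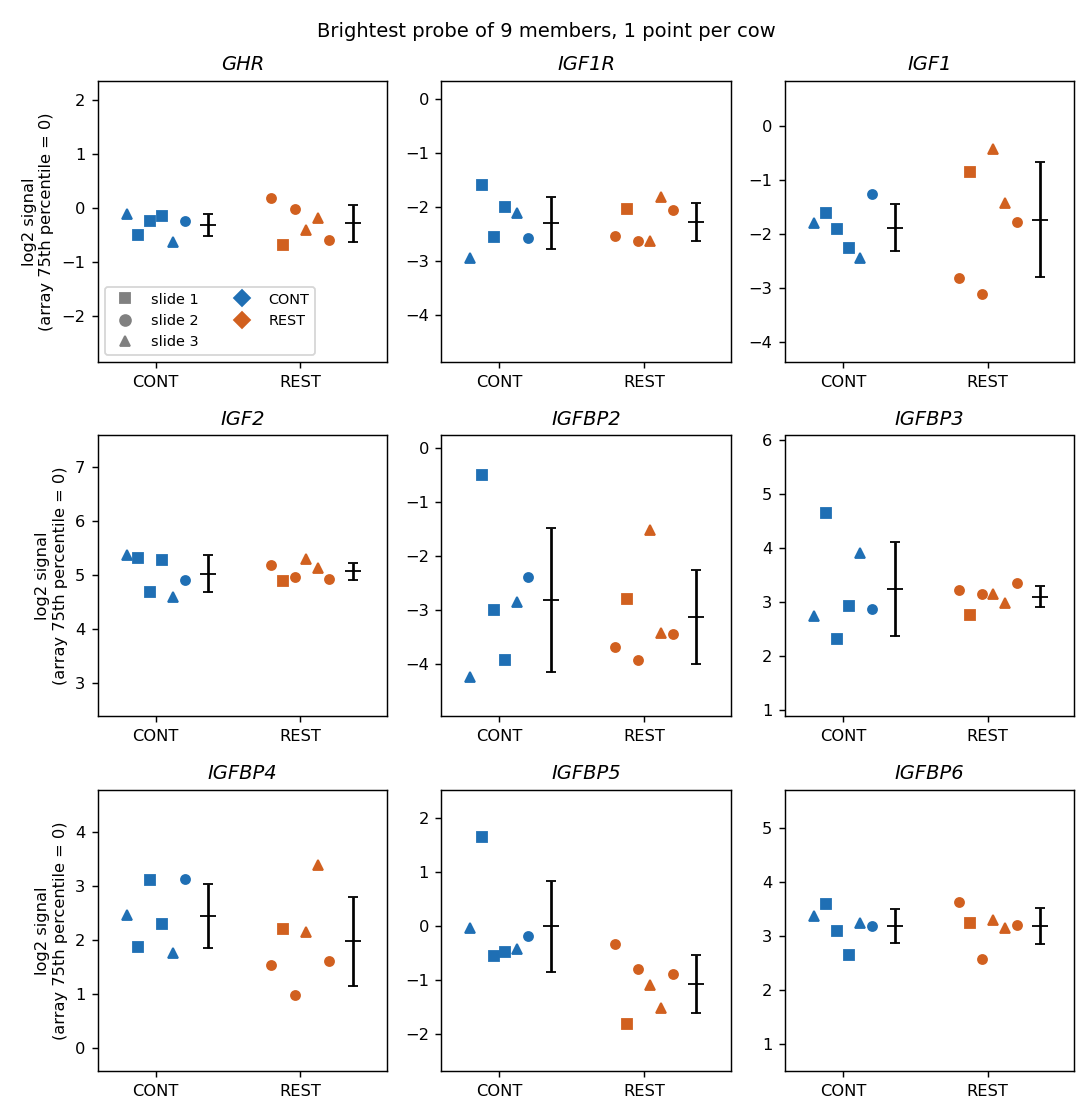
Log2 signal of probe 1 of the 9 measured members (vertical axis, array 75th percentile = 0), with 1 point per cow, the shape giving the slide and the color the diet, and the bar at the right of each group its mean ± SD (n = 6). Every panel spans the same number of log2 units. IGFBP5 shows 5 of 6 REST cows below every CONT cow, and IGF1 shows the wider scatter of REST on this probe.

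IGFBP5 was read by 2 probes annotated to the same RefSeq transcript, NM_001105327. On probe 1, the CONT cows had log2 signals of -0.56 (cow 1024), -0.49 (1076), -0.44 (8027), -0.18 (9040), -0.035 (0015) and 1.65 (0055). The REST cows had -1.81 (0078), -1.52 (1058), -1.10 (1018), -0.89 (7043), -0.80 (1015) and -0.33 (0049). Thus, 5 of 6 REST cows lay below every CONT cow, cow 0049 lay within the CONT range, and cow 0055 lay far above the other CONT cows. The means were -0.010 ± 0.84 in CONT and -1.08 ± 0.53 in REST (SD, n = 6 each). The log2 FC was -1.06 (SE 0.38, 95% interval -1.88 to -0.25), with an unadjusted p of 0.0146 in limma and a Westfall-Young and a Benjamini-Hochberg adjusted p of 1.00 over all probes. A two-sided exact permutation test over the splits of the cows gave p = 0.00866, with 0.00216 as the smallest value it can give.

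Probe 2 of IGFBP5 differed in the same direction. Its log2 signal ran from -2.52 to -0.54 in CONT (median -2.28) and from -3.95 to -1.80 in REST (median -3.23), and the same 2 cows, 0055 and 0049, were the highest of their groups. Its log2 FC was -1.12 (SE 0.41, exact permutation p = 0.0216), and 5 of 6 REST cows were below every CONT cow. The 2 probes correlated at r = 0.97 across the 12 cows, and they do not count as independent measurements. Probe 1 was called well above background in all 12 cows, and probe 2 in 6 CONT and 5 REST cows.

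The direction was the same within each slide. The REST minus CONT difference of IGFBP5 probe 1 was -2.01 on slide 1 (1 REST cow), -0.49 on slide 2 (1 CONT cow) and -1.08 on slide 3 (2 cows of each diet). Slide 1 held CONT cow 0055 at 1.65, while its other CONT cows were at -0.56 and -0.49 and its REST cow at -1.81. With slide as a block, the log2 FC was -1.18 (SE 0.42). Without cow 0055, the CONT cow that stood apart, it was -0.73 (SE 0.26), and the unadjusted limma p stayed under 0.05 with the block and without this cow. As deposited, without the shift to the 75th percentile, the intensity of probe 1 was 563.1 to 2518 in CONT and 281.5 to 343.1 in REST, and the groups did not overlap. Both IGFBP5 probes, and none of the other member probes, were without overlap on that scale, against 0.0641% of all probes (0.0619% with the lower values in REST). With the unshifted values, an alternative chosen after the data were seen, the log2 FC was -1.48 (SE 0.35), while the median log2 FC of all probes was -0.43.

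**Figure D2:**
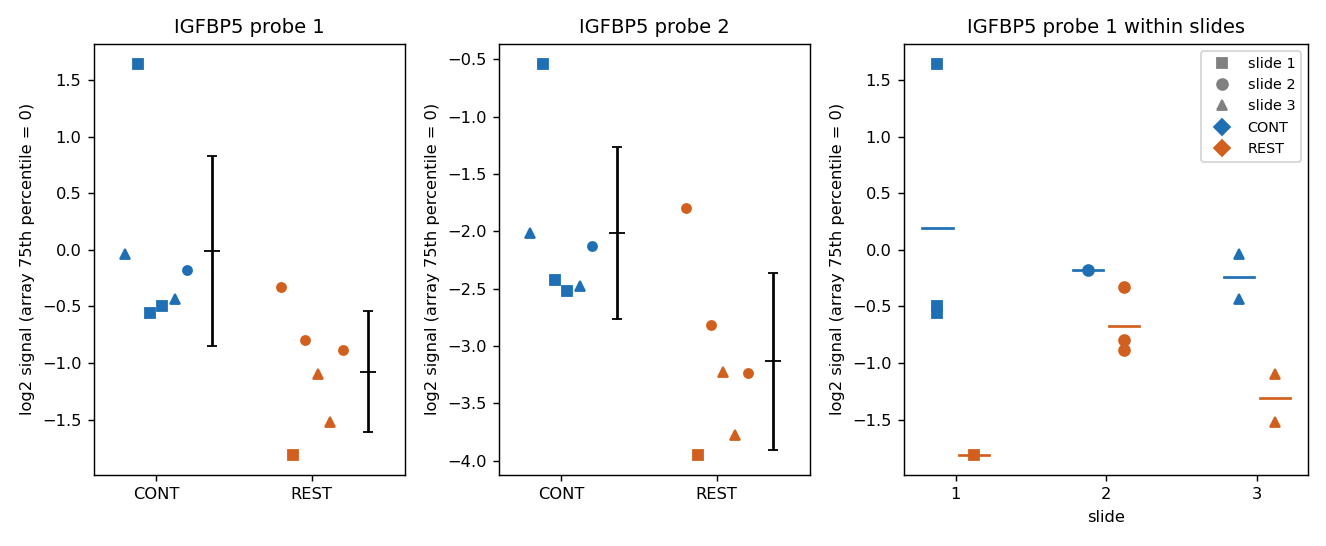
Log2 signal of both IGFBP5 probes by diet (left and middle panel, bar = mean ± SD, n = 6) and of probe 1 within each slide (right panel, line = mean of the cows of a diet on that slide). The REST mean is below the CONT mean on both probes and on all 3 slides, with CONT cow 0055 on slide 1 at 1.65.

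Changes in cell composition are read by the same arrays, and in bulk tissue fewer cells of a type and less RNA per cell cannot be told apart. Fibroblasts, which make the connective tissue of the gland, are 1 known source of IGFBPs. In the fibroblast list, 7 of 8 genes were lower in REST (median log2 FC -0.55), and 3 of them had an unadjusted limma p under 0.05, the collagens COL1A1 (-0.72) and COL1A2 (-0.65) and the matrix protein lumican, LUM (-0.84), against 0.875% of all probes under it with the lower value in REST. The summed signal of that list, relative to the 75th percentile, was 52.8 to 70.1 in CONT and 26.5 to 71.9 in REST, and all 8 genes were well above background on all arrays. With each cow left out, which for the lists was chosen after the data were seen, the median of the fibroblast list was -0.66 to -0.42. Across the 12 cows, IGFBP5 and the fibroblast list had r = 0.26 (rho = 0.19, permutation p = 0.415 for r and 0.558 for rho), with r = 0.55 within CONT and -0.85 within REST. The myoepithelial list, of the contractile cells around the alveoli, was lower in REST for 5 of 6 genes (median -0.19, summed signal 79.0 to 202 in CONT and 72.9 to 115 in REST), and it had r = 0.48 with IGFBP5 (rho = 0.26, permutation p = 0.114 for r and 0.417 for rho), with r = 0.71 within CONT, -0.0022 within REST and 0.20 without the 2 cows farthest from the median of the list. CONT cow 0055 had the highest mean of the myoepithelial list, and without it 3 of 6 genes were lower and the median was 0.0085. The part of these cell types in the IGFBP5 difference was not tested. The other lists had medians of 0.43 (endothelium, 6 of 6 genes higher, with VWF alone under an unadjusted p of 0.05, against 2.62% of all probes), 0.14 (luminal epithelium, 6 of 8 higher), 0.25 (adipocyte, 4 of 5 higher), 0.12 (pericyte, 3 of 4 higher) and -0.074 (leukocyte, 2 of 6 higher). In the adipocyte list, only 1 of 5 genes was well above background on all arrays. The adipocyte median was the value of PLIN1, which was well above background in 1 CONT and 2 REST cows. CONT cow 8027 stood apart on the endothelial list, with a mean log2 signal of -1.91 against -0.20 to 0.085 in the other CONT cows, and on the pericyte list, with -1.89 against -0.71 to -0.21. Without this cow, the endothelial median was 0.16, with 6 of 6 genes still higher, the pericyte median was -0.11, with 1 of 4 higher, the luminal median was 0.059, and the IGFBP5 log2 FC was -1.15. With each cow left out, the luminal median was 0.043 to 0.37, the adipocyte median 0.18 to 0.36 and the leukocyte median -0.18 to 0.061.

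IGFBP3, the main carrier of IGFs in blood, was high in 2 CONT cows. On probe 1 its log2 signal ran from 2.31 to 4.65 in CONT (median 2.90) and from 2.77 to 3.35 in REST (median 3.15). CONT cows 0055 (4.65) and 8027 (3.90) were above all REST cows, and the other 4 CONT cows lay at 2.31 to 2.93. The SD was 0.87 in CONT and 0.20 in REST. The log2 FC was -0.13 (SE 0.34, exact permutation p = 0.734), and it was -0.53, 0.37 and -0.26 within slides 1, 2 and 3. All 5 probes had a lower mean in REST, from -0.48 to -0.13, with a lowest exact permutation p of 0.229. The 5 probes correlated at r = 0.83 to 0.95. Without cow 0055, the log2 FC of probe 1 was 0.15, and without cow 8027 it was 0.0011.

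IGFBP2, a binding protein with a preference for IGF2, varied more between cows than between diets. Its log2 signal was -4.24 to -0.49 in CONT (median -2.92) and -3.91 to -1.51 in REST (median -3.43). Again cow 0055 was the highest of CONT, and cow 1018 was the highest of REST. The log2 FC was -0.31 (SE 0.59, exact permutation p = 0.647) on probe 1 and -0.023 (SE 0.37, exact permutation p = 0.952) on probe 2. Probe 1 gave 0.15 without cow 0055, and -0.32, -1.29 and 1.08 within slides 1, 2 and 3. In the RefSeq table of bovine genes (assembly ARS-UCD2.0), IGFBP2 and IGFBP5 are neighboring genes, as are IGFBP3 and IGFBP1.

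For IGFBP4, which mostly holds IGFs back from the receptor, the 2 probes disagreed. Probe 1 was 1.76 to 3.14 in CONT (median 2.38) and 0.97 to 3.38 in REST (median 1.87). A total of 3 REST cows, 1015, 0049 and 7043, were below every CONT cow, and cow 1058 was above every CONT cow. All 3 of the low cows were on slide 2, where the difference was -1.76, against -0.22 on slide 1 and 0.65 on slide 3. The log2 FC was -0.46 (SE 0.38, exact permutation p = 0.277). Without cow 1058 it was -0.75 (SE 0.32), with an unadjusted limma p under 0.05, and without cow 1015 it was -0.26 (SE 0.37), with a p above it. The mean over both probes gave -0.19 (SE 0.36). Probe 2 gave 0.082 (SE 0.58, exact permutation p = 0.911), and the correlation of both probes over the 12 cows was 0.014. As both are annotated to the same transcript accession, it was not tested which of them reads IGFBP4.

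IGFBP6, which prefers IGF2, had group means that differed by less than their spread. Probe 1 was 2.64 to 3.59 in CONT (median 3.20) and 2.58 to 3.62 in REST (median 3.22), with a log2 FC of -0.0056 (SE 0.20, 95% interval -0.44 to 0.43, exact permutation p = 0.961). Probe 2 gave -0.040 (SE 0.22). IGFBP1, the binding protein that the liver makes when insulin is low, was not well above background on most arrays. Its probe 1 exceeded background clearly in 1 CONT cow and 0 REST cows, and its probe 2 in 0 CONT cows and 1 REST cow. No fold change is given for it.

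**Figure D3:**
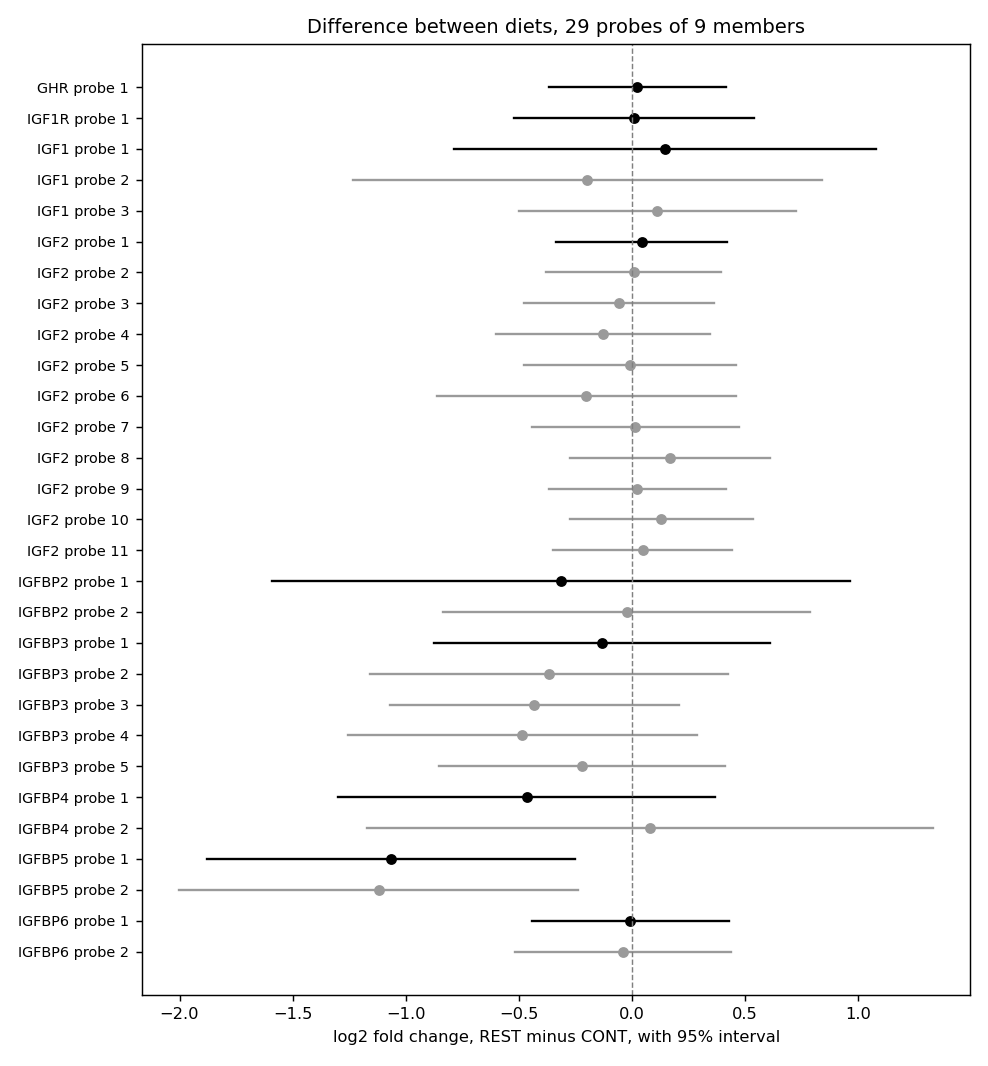
Log2 fold change, REST minus CONT, with its 95% interval (horizontal axis) for the 29 measured probes of 9 members, numbered from the brightest; black marks the probe that stands for the gene. The intervals of both IGFBP5 probes lie below 0, and those of the other 27 probes include 0.

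IGF1 had a wider scatter in REST on 2 of its 3 probes, and its group means differed by less than that scatter. On probe 1, the CONT cows were at -2.45 (8027), -2.26 (1076), -1.91 (1024), -1.80 (0015), -1.62 (0055) and -1.27 (9040). The REST cows were at -3.11 (1015), -2.82 (0049), -1.78 (7043), -1.43 (1058), -0.85 (0078) and -0.43 (1018). Thus, 2 REST cows were below and 2 were above every CONT cow, and the SD was 1.06 in REST and 0.43 in CONT, a difference of spread that was not tested. The log2 FC was 0.15 (SE 0.43, 95% interval -0.79 to 1.08, exact permutation p = 0.755). It was 1.08 on slide 1, -1.30 on slide 2 and 1.19 on slide 3, so that the sign changed with the slide. Probe 2 gave -0.20, with an SD of 0.53 in CONT and 1.17 in REST. Probe 2 was called well above background in 5 CONT and 5 REST cows, and not in cow 0049, the lowest of REST at -5.10. Probe 3 gave 0.11, with an SD of 0.53 in CONT and 0.48 in REST, so that the wider scatter was not seen on it. The 3 probes correlated at r = 0.32 to 0.85.

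IGF2 had group means that differed by less than the spread between cows. Probe 1 was 4.59 to 5.38 in CONT (median 5.09) and 4.90 to 5.30 in REST (median 5.05), and the log2 FC was 0.044 (SE 0.18, 95% interval -0.34 to 0.42, exact permutation p = 0.768). The SD of that probe was 0.34 in CONT and 0.16 in REST, and the widest of the 11 probes was probe 6, with an SD of 0.73 in CONT and 0.29 in REST. Its 11 probes gave log2 FC from -0.20 to 0.17, with 7 above 0 and 4 below, and a lowest exact permutation p of 0.400. Probe 1 differed by -0.19, 0.12 and 0.23 within slides 1, 2 and 3. The probes correlated at r = 0.40 to 0.99 (median 0.64 over 55 pairs). In the RefSeq table, IGF2 is a neighbor of the insulin gene INS.

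The receptor means differed by less than the spread between cows. GHR was -0.61 to -0.10 in CONT (median -0.24) and -0.68 to 0.19 in REST (median -0.29), with a log2 FC of 0.025 (SE 0.18, 95% interval -0.37 to 0.42, exact permutation p = 0.883). IGF1R was -2.95 to -1.59 in CONT (median -2.33) and -2.63 to -1.83 in REST (median -2.31), with a log2 FC of 0.010 (SE 0.24, 95% interval -0.52 to 0.54, exact permutation p = 0.970). Each receptor was read by 1 probe, and the groups overlapped over most of their range. Within slides 1, 2 and 3, GHR differed by -0.39, 0.10 and 0.069 and IGF1R by 0.013, 0.16 and 0.30. Differences of any size within these 95% intervals are compatible with the values of the 6 cows per group, and no detection limit was computed.

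The pathway list held 22 genes that act on the IGF axis, from proteases of the binding proteins to adaptors of the receptors. Of these, 15 were matched and 14 measured in both groups, 7 higher and 7 lower in REST (median log2 FC -0.036), and none had an unadjusted limma p under 0.05, against 2.62% of all probes. PAPPA, PAPPA2, STC2, JAK2, INSR, IRS1 and IRS2 were not matched and IGF2BP2 was not well above background. The 3 lowest p belonged to STC1, PTPN1 and GRB2. STC1, stanniocalcin-1, an inhibitor of the protease that cleaves IGFBP4, was -3.33 to -1.76 in CONT (median -2.37) and -2.56 to -1.30 in REST (median -1.64). Its log2 FC was 0.70 (SE 0.33, 95% interval -0.020 to 1.43, exact permutation p = 0.0758), and 3 REST cows were above every CONT cow. It was 0.42 (SE 0.29) with normexp background correction and 0.29 (SE 0.31) without the shift between arrays. Its unadjusted limma p was under 0.05 when dim probes were left out, with an intensity trend, and without CONT 0015, CONT 0055, REST 0078 or REST 1058, and was above it in the other settings. The phosphatase PTPN1 (0.14, exact permutation p = 0.221) and the adaptor GRB2 (-0.14, exact permutation p = 0.372) differed by less than their spread. Probe 2 of PTPN1 had the opposite sign, at -0.13 (SE 0.21), and the mean over its probes gave 0.0024 (SE 0.15).

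No pair of members passed the adjustment for a correlation across cows. Of the 36 pairs of the 9 measured members, r ranged from -0.53 to 0.63, 2 pairs had a permutation p under 0.05 for r, and the lowest Benjamini-Hochberg adjusted p was 0.428. By rank, 3 other pairs had a permutation p under 0.05, IGFBP3 with IGFBP4 (rho = -0.70, r = -0.49), GHR with IGFBP2 (rho = -0.69, r = -0.51) and IGF1 with IGFBP2 (rho = 0.65, r = 0.55), and the lowest adjusted p for rho was 0.305. The highest r was IGFBP3 with IGFBP5 at r = 0.63 (rho = 0.17, permutation p = 0.0460 for r and 0.589 for rho), which was -0.12 without the 2 cows farthest from the median of IGFBP3. The same pair had r = 0.77 within CONT, 0.82 within REST, 0.73 after diet was removed and 0.78 after diet and slide were removed.

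Against the 7 lists of cell type markers, 2 of 63 relations were under 0.05 after Benjamini-Hochberg adjustment for Pearson's r, and none for rho. IGFBP2 correlated with the myoepithelial list at r = 0.89 (permutation p = 0.00015, adjusted p = 0.00945) and rho = 0.80 (permutation p = 0.00227, adjusted p = 0.143). It was 0.71 without the 2 cows farthest from the median, 0.94 within CONT, 0.83 within REST and 0.92 after diet and slide were removed, while probe 2 gave 0.77. IGFBP4 probe 1 correlated with the leukocyte list at r = 0.83 (permutation p = 0.00098, adjusted p = 0.0309) and rho = 0.77 (permutation p = 0.00482, adjusted p = 0.149). It was 0.78 without the 2 cows farthest from the median, 0.86 within CONT and within REST and 0.85 after diet and slide were removed, but probe 2 gave 0.28.

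**Figure D4:**
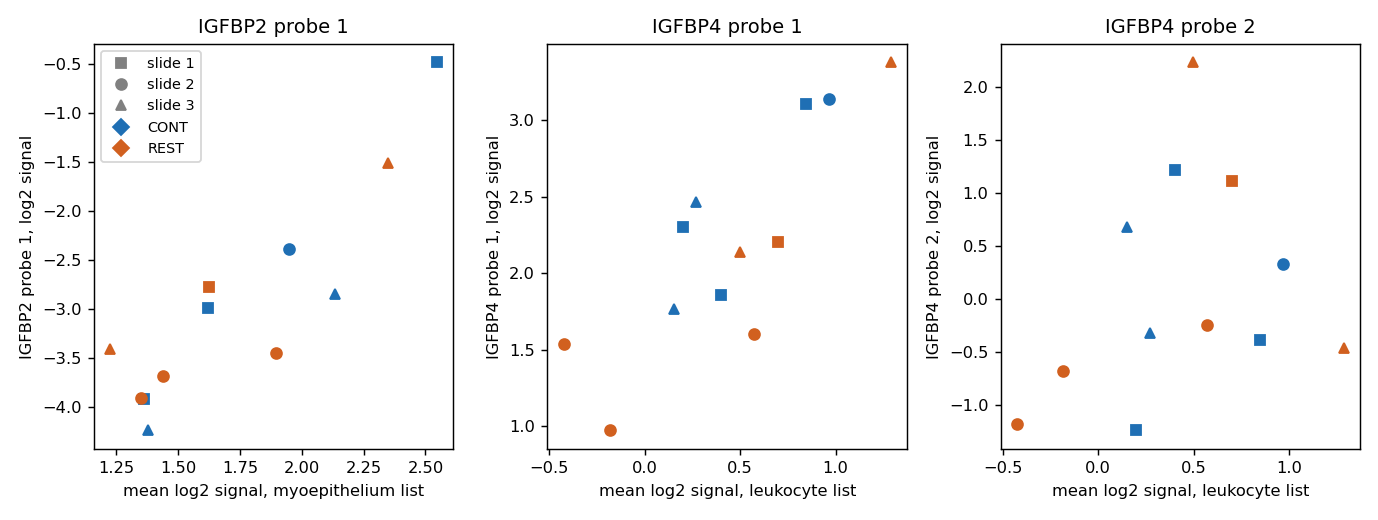
Log2 signal of IGFBP2 probe 1, IGFBP4 probe 1 and IGFBP4 probe 2 (vertical axis) against the mean log2 signal of a list of cell type markers (horizontal axis, myoepithelium or leukocyte), with 1 point per cow, color for diet and shape for slide. IGFBP2 and IGFBP4 probe 1 rise with the lists (r = 0.89 and 0.83), and IGFBP4 probe 2 has r = 0.28 with the leukocyte list.

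For the 3 members with the lowest p, the genes with the most similar profile over the 12 cows were taken from 9000 genes that were well above background on all arrays. IGFBP5 was most similar to ADAMTSL2 (r = 0.85), YWHAE (0.82), AOPEP (0.82), MYLK (0.79) and TSEN54 (0.79), and probe 2 gave r = 0.73 to 0.88 with the same 5 genes. MYLK, the kinase of the myosin light chain, belongs to the myoepithelial list. IGFBP2 was most similar to ITGB1 (0.96), FLNA (0.95), MYL9 (0.93), ELK3 (0.93) and GNMT (0.91). ITGB1 is an adhesion receptor, FLNA an actin crosslinker and MYL9 a light chain of smooth muscle myosin, and probe 2 gave 0.76 to 0.89 with the 5 genes. IGFBP4 probe 1 was most similar to CETN2 (0.98), MCAM (0.98), PTPRC (0.96), SFN (0.96) and ATOSB (0.96). PTPRC, the CD45 antigen of leukocytes, belongs to the leukocyte list, and MCAM to the pericyte list. Probe 2 of IGFBP4 gave r = -0.22 to 0.10 with these 5 genes. These r are the highest of many and are given as a description without a p.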

How the data were processed

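Total RNA of 12 biopsies (6 CONT, 6 REST) was labeled with Cy3 by the authors, hybridized to Agilent bovine arrays and processed with Feature Extraction 11.0.1.1. The deposited values are spot intensities on a linear scale, background-subtracted and not normalized between arrays. The genome build of the array annotation differs from that of the RefSeq table, so no coordinates are given. Here, control spots were left out, 240 outlier spots were dropped, and the log2 intensity, less the log2 75th percentile of its array, was averaged over the spots of a probe. REST and CONT were compared with limma 3.58.1 (R 4.3.3) on all 43653 probes, with two-sided p-values, Westfall-Young adjustment over 100 splits (lowest value 0.01) and Benjamini-Hochberg adjustment. The procedure was tested on simulated data. Correlations used 100000 permutations. The brightest probe stood for a gene. All 10 members and their probes are named, with pathway genes under an unadjusted p of 0.05 or, if none, the 3 with the lowest p, and the 5 most similar genes of 3 members. The members and lists were chosen with earlier results of these data known. Alternatives were another normalization, normexp background correction (offset 50), the series' value table, a filter on dim probes, outlier spots kept, slide as a block, an intensity trend, the mean over probes and leaving out each cow. The number of arrays limits the precision.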

Additional observations from a re-analysis of the deposited data

Results flagged for a closer look

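In 5 of 60 groups of 6 cows, 1 cow lay far from the others by Dixon's criterion at 95%, where chance gives about 3. CONT cow 0055 had an IGFBP5 log2 signal of 1.65, and the nearest CONT cow was at -0.035. CONT cow 8027 had a STAT5B log2 signal of -1.41, with the nearest CONT cow at 0.089, and a SOCS2 log2 signal of 1.93, with the nearest at 0.76. STAT5B carries the growth hormone signal to the nucleus, and SOCS2 is a feedback inhibitor of it. The same cow had a mean log2 signal of -1.91 on the endothelium list, with the nearest CONT cow at -0.20, and of -1.89 on the pericyte list, with the nearest at -0.71.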

How the results depend on the processing

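No probe passed the Westfall-Young or the Benjamini-Hochberg threshold under any setting run. IGFBP5 stayed lower in REST with an unadjusted limma p under 0.05 in all of them, at -1.21 to -0.73 with each cow left out. Leaving out cows 0055 and 0049 together and omitting the shift between arrays were chosen after the data were seen; the first gave -0.88 for IGFBP5. The number of members higher in REST, 4 of 9, was 2 with normexp, 0 without the shift, and 2 to 6 with 1 cow left out (6 without CONT 0055, 2 without CONT 1024, REST 0078 or REST 1018). The number of members under 0.05 was 1 to 2 with 1 cow left out (2 without REST 1058, IGFBP4 being the other). The number of pathway genes under 0.05, 0 of 14, was 1 (STC1) without dim probes and with an intensity trend, and 0 to 1 with 1 cow left out (1 without CONT 0015, CONT 0055, REST 0078 or REST 1058). STC1 ranged from 0.54 to 0.86 with each cow left out, stayed above an unadjusted p of 0.05 with the slide block (0.68), and was 0.42 with normexp and 0.29 without the shift. The sign of small differences changed: quantile normalization gave IGF1R -0.060 and IGFBP6 0.0044, normexp GHR -0.0093 and IGF1R -0.030, and the slide block GHR -0.060. Without the shift, GHR was -0.39, IGF1 -0.26, IGF2 -0.37, IGF1R -0.40, IGFBP4 -0.88 and PTPN1 -0.27, while all probes had a median of -0.43. Without cows 0055 and 0049, GHR was -0.11, IGFBP2 0.26 and IGFBP3 0.13. With each cow left out, GHR ranged from -0.069 to 0.11, IGF1 from -0.11 to 0.42, IGF2 from -0.043 to 0.11, IGF1R from -0.12 to 0.15, IGFBP2 from -0.63 to 0.15, IGFBP3 from -0.32 to 0.15, IGFBP4 from -0.75 to -0.26 and IGFBP6 from -0.11 to 0.11. The cause was not tested. The 1143 probes with an unadjusted p under 0.05 (761 higher in REST) became 1518 with quantile normalization (857 higher), 377 with normexp (241 higher), 1217 with the slide block (1012 higher), 1627 without the shift (80 higher), 1739 without REST 1058 (1431 higher) and 1711 without REST 0078. No paired analysis was possible because the labels give no number that pairs cows of the 2 diets.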
